A study of Mus musculus with 11 samples.

Results

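Of the 10 cohesin subunits and regulators described here (*Rec8*, *Rad21*, *Rad21l*, *Stag1*, *Stag3*, *Smc1b*, *Smc3*, *Nipbl*, *Wapl* and *Sgo2a*), 9 were represented on the array, by 23 of its 46643 probes. The probes are all those that the platform's annotation assigns to these genes, whatever their values. RNA of spermatocytes and of spermatids was measured on 11 Illumina mouse arrays in 4 groups, which held 3 wild type spermatocyte, 2 *Dnmt3L* heterozygous spermatocyte, 3 wild type spermatid and 3 *Dnmt3L* heterozygous spermatid preparations. All mice were C57Bl/6 and aged 8 to 12 weeks, and each preparation combined the testes of 10 mice. By the methods the spermatocyte fraction contained pachytene spermatocytes, and the labels give each preparation within a group a replicate number. Both cell types were fractions enriched by centrifugal elutriation, so other testis cells remained in them, and the heterozygous mice carried 1 germline *Dnmt3L* allele with a *LacZ* insertion followed by stop codons. Spermatids are haploid, so those of heterozygous mice are a mixture of cells with and without the insertion, which share mRNA through cytoplasmic bridges. All values below are log2 expression as the authors normalised it, in which a difference of 1 is a doubling, and at low levels such values understate a change.

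Cohesin is a ring of proteins that holds sister chromatids together and helps fold chromosomes into loops. The mitotic ring contains SMC1A, SMC3, the closing subunit RAD21 and STAG1 or STAG2. In meiosis much of it is replaced by rings with SMC1B, STAG3 and either REC8 or RAD21L, which form the axis on which homologous chromosomes pair, recombine and synapse. NIPBL loads the ring onto chromatin and WAPL releases it. Shugoshin 2, encoded by *Sgo2a*, protects REC8 at centromeres from cleavage at the first meiotic division, so that sister chromatids stay joined until the second. Spermatocytes in pachytene are at the stage of full synapsis, and round spermatids are the haploid cells that both divisions leave.

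*Rec8* was the member that differed most between the cell types, with a 7.55-fold higher level in spermatids than in spermatocytes of wild type mice, and *Sgo2a*, *Stag3* and *Nipbl* were lower in spermatids. *Stag3* was called in both genotypes, and so were some but not all probes of *Nipbl*. *Sgo2a* was called in wild type cells only, and that call was lost in 7 of 11 fits with an array left out. No member probe was called between wild type and heterozygous cells of either type. *Smc1b* lay lower in spermatids without passing the test. The probes of *Rad21*, *Smc3* and *Stag1* stayed at the dim end of the arrays in all 4 groups, and no probe carried the name *Rad21l*.

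Of the 23 probes, 16 passed the filter that set aside the dimmest 40% of all probes by their mean over the 11 arrays, which left out means up to 6.80. These 16 belonged to 7 genes. *Nipbl* was read by 6 probes and *Wapl* by 4, all of which passed, while *Rec8*, *Stag3*, *Smc1b* and *Sgo2a* had 1 probe each. The other 7 were the 1 *Rad21* probe, all 4 *Smc3* probes and 2 of the 4 *Stag1* probes, with values between 6.57 and 6.93 on every array. The 2 *Stag1* probes that passed were as dim, the 4 together lying between 6.57 and 7.03. *Rad21* and *Smc3* encode subunits of rings that many cell types contain, so a dim probe is given here only as a property of the probe. Whether a probe was above the negative control beads on a given array could not be read, because the deposited detection p-values are in columns whose names match no sample. For 4 probes (1 of *Stag1*, 1 of *Nipbl* and 2 of *Wapl*) the annotation cites a cDNA clone and not a curated transcript, and whether such a clone is the spliced mRNA was not tested.

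**Figure D1:**
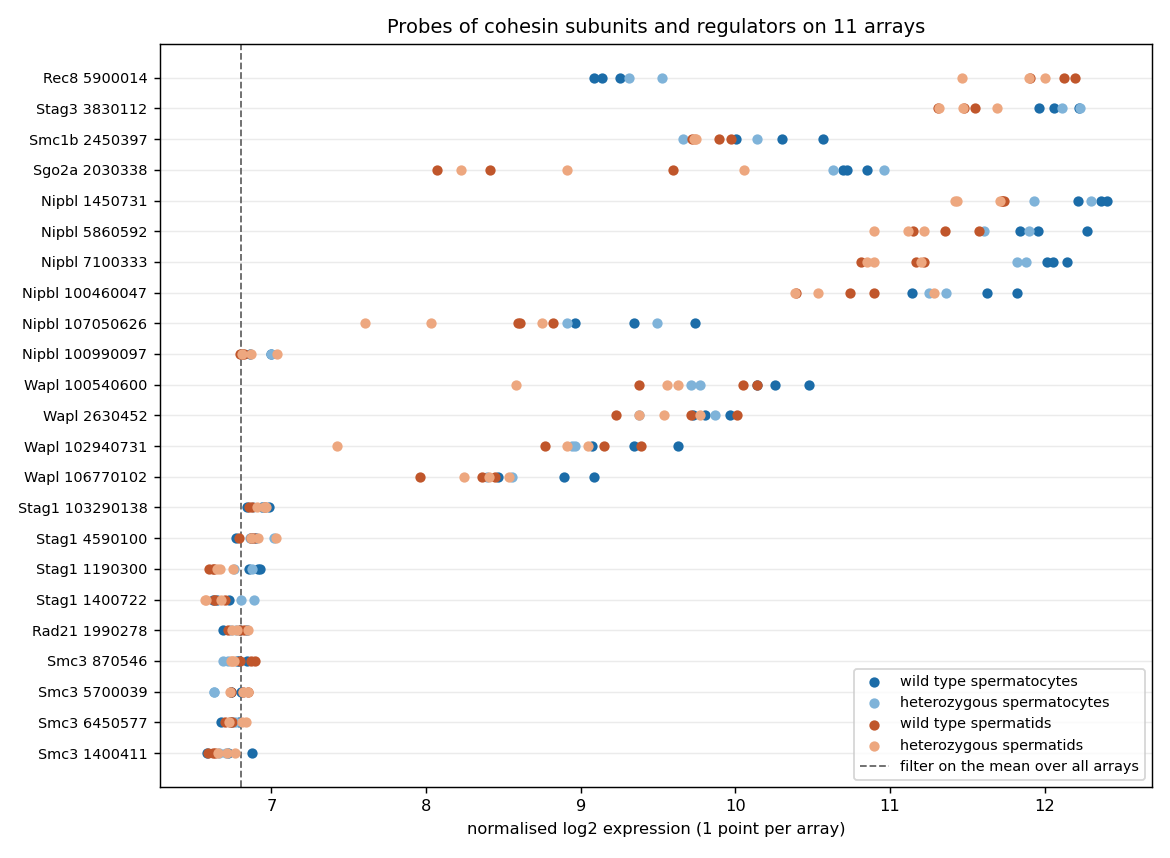
Normalised log2 expression (horizontal axis) of the 23 probes of cohesin subunits and regulators, with 1 point per array coloured by genotype and cell type and a dashed line at the filter's limit of 6.80. Spermatid points of *Rec8* lie to the right of all spermatocyte points, those of *Stag3* and *Sgo2a* to the left, and *Rad21*, *Smc3* and *Stag1* stay between 6.57 and 7.03.

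The promoters of *Rec8*, *Stag3* and *Smc1b* are shown because these are the meiosis-specific subunits of the ring that were measured. Each is the 250 bases before the start of the gene in RefSeq on GRCm38.p6, read 5′ to 3′ on the gene's strand, and capitals mark CpG dinucleotides, the sites at which mammalian DNA is methylated. *Rec8* is the window chr14:55617916-55618165 on the plus strand, *Stag3* is chr5:138280259-138280508 on the plus strand and *Smc1b* is chr15:85131958-85132207 on the minus strand.
Rec8: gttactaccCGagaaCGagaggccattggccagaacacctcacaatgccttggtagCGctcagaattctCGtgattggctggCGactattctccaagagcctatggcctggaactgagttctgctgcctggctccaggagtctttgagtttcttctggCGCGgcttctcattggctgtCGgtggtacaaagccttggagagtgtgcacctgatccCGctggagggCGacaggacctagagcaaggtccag
Stag3: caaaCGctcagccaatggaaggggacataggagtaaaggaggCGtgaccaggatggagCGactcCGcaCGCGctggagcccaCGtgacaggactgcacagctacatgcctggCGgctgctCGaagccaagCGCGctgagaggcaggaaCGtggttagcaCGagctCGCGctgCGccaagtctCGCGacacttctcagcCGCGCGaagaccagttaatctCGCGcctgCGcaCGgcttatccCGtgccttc
Smc1b: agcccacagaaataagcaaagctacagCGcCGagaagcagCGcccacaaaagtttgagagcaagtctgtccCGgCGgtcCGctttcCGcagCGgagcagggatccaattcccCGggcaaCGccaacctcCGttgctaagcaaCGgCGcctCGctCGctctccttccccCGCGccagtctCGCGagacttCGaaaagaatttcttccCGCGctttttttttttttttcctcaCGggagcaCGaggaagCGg

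The *Rec8* window held 10 CpG dinucleotides, against 26 in *Stag3* and 25 in *Smc1b*, with a median of 6 over 32851 windows of the same length. In that distribution *Rec8* stood at percentile 62.2, *Stag3* at 90.4 and *Smc1b* at 89.3. Of the 10 members, 8 matched a promoter window, 9 windows in all, and *Rad21l* had the lowest count with 1 CpG and *Wapl* the highest with 32. The palindromic E-box CACGTG, which occurred in 6.02% of all windows on either strand, was found in *Stag3* and in no other member window. GCGGGAA, the core of sites bound by E2F factors, occurred in 3.82% of windows and was found once each in *Smc1b* and *Stag1*. The half-site TGACG of the cyclic AMP response element was in 17.8% of windows and among members only in *Wapl*, and the full element TGACGTCA, the MYB site CCGTTA and the RFX half-site GTTGCCAT were in no member window. These matches describe letters in the windows. Methylation and binding were not measured in these samples.

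Several facts of the arrays bear on the values below. Each cell type was hybridised on a BeadChip of its own, so cell type and chip cannot be told apart in any comparison of spermatids with spermatocytes, whereas the genotypes shared a chip. The spermatid arrays numbered 2 stood nearer the spermatocytes than the other spermatid arrays did, with a correlation to the mean spermatocyte profile of 0.940 in wild type and 0.949 in heterozygous spermatids against 0.856 to 0.895 on the other 4. Of the round spermatid markers, 8 of 9 with a probe were called higher in wild type spermatids. Their array means were 9.57 to 10.59 in spermatocytes and 11.71 to 12.28 in spermatids. The wild type spermatocyte array numbered 2 was the lowest, at 9.57 against 10.39 and 10.40 on the other wild type ones. Single genes read from 8.08 to 8.31 (*Tssk1*) up to 11.20 to 12.56 (*Prm1*) in spermatocytes. Whether spermatid RNA was present in the spermatocyte fractions was not tested. Of the 8 pachytene markers with a probe, 7 were tested, and 0 were called higher and 1 lower in wild type spermatids. *Sycp3* and *Ccna1* were dim on all arrays, and *Spo11*, *Hspa2*, *Pgk2* and *Ldhc* bright in both cell types. *Spo11* and *Ovol1* were lower on every spermatid array than on any spermatocyte array, while *Piwil1*, *Hspa2*, *Pgk2* and *Ldhc* overlapped. The array means of this list were 10.82 to 10.91 in spermatocytes and 10.41 to 10.78 in spermatids, a small separation. The macrophage and blood markers had array means of 6.92 to 7.29 in spermatocytes and 8.98 to 10.2 in spermatids, and the peritubular markers 7.87 to 8.12 and 9.41 to 10.1. Of the peritubular genes, *Acta2*, *Dcn* and *Actg2* were higher on every spermatid array than on any spermatocyte array. *Actg2* already read 9.60 to 10.61 in spermatocytes, and *Myh11* was dim on all arrays (6.73 to 6.93). The spermatogonium markers, of which 3 of 6 tested were called higher in wild type spermatids, had array means of 7.28 to 7.38 and 7.62 to 8.02. Of these genes *Kit*, *Sohlh1* and *Uchl1* were higher on every spermatid array than on any spermatocyte array, and *Gfra1* was lower. *Stra8*, *Dmrt1*, *Zbtb16* and *Nanos3* were dim on all arrays (6.58 to 7.08). The Leydig markers had array means of 7.30 to 8.87 in spermatocytes and 7.47 to 9.87 in spermatids, and the Sertoli markers 7.74 to 8.83 and 7.64 to 8.94. These 2 lists varied between arrays of 1 group, as in the Leydig means of 8.35, 7.47 and 9.87 in wild type spermatids. The Leydig gene *Star* was lower on every spermatid array (6.68 to 7.39) than on any spermatocyte array (7.86 to 8.36). The part of these other cells in the differences below was not tested. The *Dnmt3l* probe, which by the methods lies 3′ of the insertion and therefore checks no label, read 8.10 to 8.27 in wild type spermatocytes, 8.66 and 8.82 in heterozygous spermatocytes, 10.2 to 10.9 in wild type spermatids and 9.78 to 11.0 in heterozygous spermatids.

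The first comparison asks how the members differed between meiotic and haploid cells of the same genotype. In wild type cells 6 of the 16 member probes were called at an adjusted p under 0.05 (limma, Benjamini-Hochberg over all probes and 4 contrasts), 1 higher in spermatids and 5 lower. Of all 27986 probes tested, 27.0% were called in this comparison, 11.5% higher and 15.5% lower. The median difference of the 16 member probes, 6 of them of *Nipbl* and 4 of *Wapl*, was -0.49, against -0.03 over all probes. Of the 16, 13 had a mean above 8, and the set of all probes was not matched to them for level. When the dimmest 60% of probes were left out, the median over all probes was -0.09 and 7422 of 18657 were called. In such bulk samples fewer cells of a type and less RNA per cell cannot be told apart. In heterozygous cells 5 of 16 were called, 1 higher and 4 lower, where 17.8% of all probes were (8.65% higher and 9.15% lower), and the member median was -0.49 against -0.02.

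*Rec8* encodes the closing subunit that separase cuts at the meiotic divisions. Its probe (5900014, chromosome 14) read 9.25, 9.14 and 9.09 in wild type spermatocytes and 12.19, 11.91 and 12.13 in wild type spermatids. In heterozygous cells it read 9.53 and 9.32 in spermatocytes and 11.90, 11.46 and 12.00 in spermatids. Every spermatid array was above every spermatocyte array, and the arrays numbered 2 were the lowest of their spermatid groups. The difference was 2.92 ± 0.14 (SE) in wild type cells (limma adjusted p = 6.5e-05) and 2.37 ± 0.16 in heterozygous cells (limma adjusted p = 0.000193), a fold of 7.55 and of 5.15. Only 51 of the 27986 probes had a more positive difference in wild type cells, and 98 in heterozygous cells. Both calls were kept when any 1 array was left out.

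*Stag3* encodes the STAG subunit of meiotic rings. The probe (3830112, chromosome 5) read 11.96, 12.06 and 12.23 in wild type spermatocytes and 11.48, 11.31 and 11.55 in wild type spermatids. Heterozygous spermatocytes read 12.23 and 12.12, and heterozygous spermatids 11.32, 11.69 and 11.47. The spermatid arrays were thus all below the spermatocyte arrays in both genotypes, but remained bright. *Stag3* fell by 0.64 ± 0.11 (SE) in wild type cells (limma adjusted p = 0.00834) and by 0.68 ± 0.12 in heterozygous cells (limma adjusted p = 0.00991), which is 1.55-fold and 1.60-fold lower in spermatids. The heterozygous call was lost without the first heterozygous spermatocyte array (adjusted p = 0.0672).

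*Smc1b*, the meiotic SMC1 subunit, had smaller differences. Its probe (2450397, chromosome 15) read 10.01, 10.30 and 10.57 in wild type spermatocytes against 9.97, 9.72 and 9.89 in wild type spermatids, which came close without overlapping. The heterozygous arrays overlapped, with 10.14 and 9.66 in spermatocytes against 9.73, 9.74 and 9.74 in spermatids. The difference was -0.43 ± 0.16 (SE, 95% interval -0.79 to -0.08) in wild type cells and -0.16 ± 0.18 (-0.56 to 0.23) in heterozygous cells, and neither passed the test (limma adjusted p = 0.131 and 0.720). The difference had the sign of that at *Stag3*, and the 2 genes were not tested against each other.

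*Sgo2a*, whose protein guards centromeric REC8, had the most negative difference among the members. The probe (2030338, chromosome 1) read 10.70, 10.85 and 10.73 in wild type spermatocytes and 10.96 and 10.63 in heterozygous spermatocytes. It read 8.42, 9.60 and 8.07 in wild type spermatids and 8.22, 10.05 and 8.91 in heterozygous spermatids. All spermatid arrays were below all spermatocyte arrays, and in each genotype the spermatid array numbered 2, which also stood nearest the spermatocytes over all probes, was the highest. In wild type cells *Sgo2a* fell by 2.06 ± 0.48 (SE), to a level 4.18-fold lower (limma adjusted p = 0.0261), and 68 probes had a more negative difference. The heterozygous difference of -1.73 ± 0.54 (SE) was not called (limma adjusted p = 0.0763). The wild type call was lost in 7 of the 11 fits without 1 array (adjusted p up to 0.0874) and kept without the second wild type spermatid array or any heterozygous spermatid array. Without both arrays numbered 2, an alternative chosen after the data were seen, the heterozygous difference was -2.23 and passed the test (adjusted p = 0.000528). Leaving out the highest spermatid array of a group necessarily makes its difference more negative, so this pass is no separate support. Of all probes, 28.1% were called between the heterozygous cell types in that fit, against 17.8% in the main fit.

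**Figure D2:**
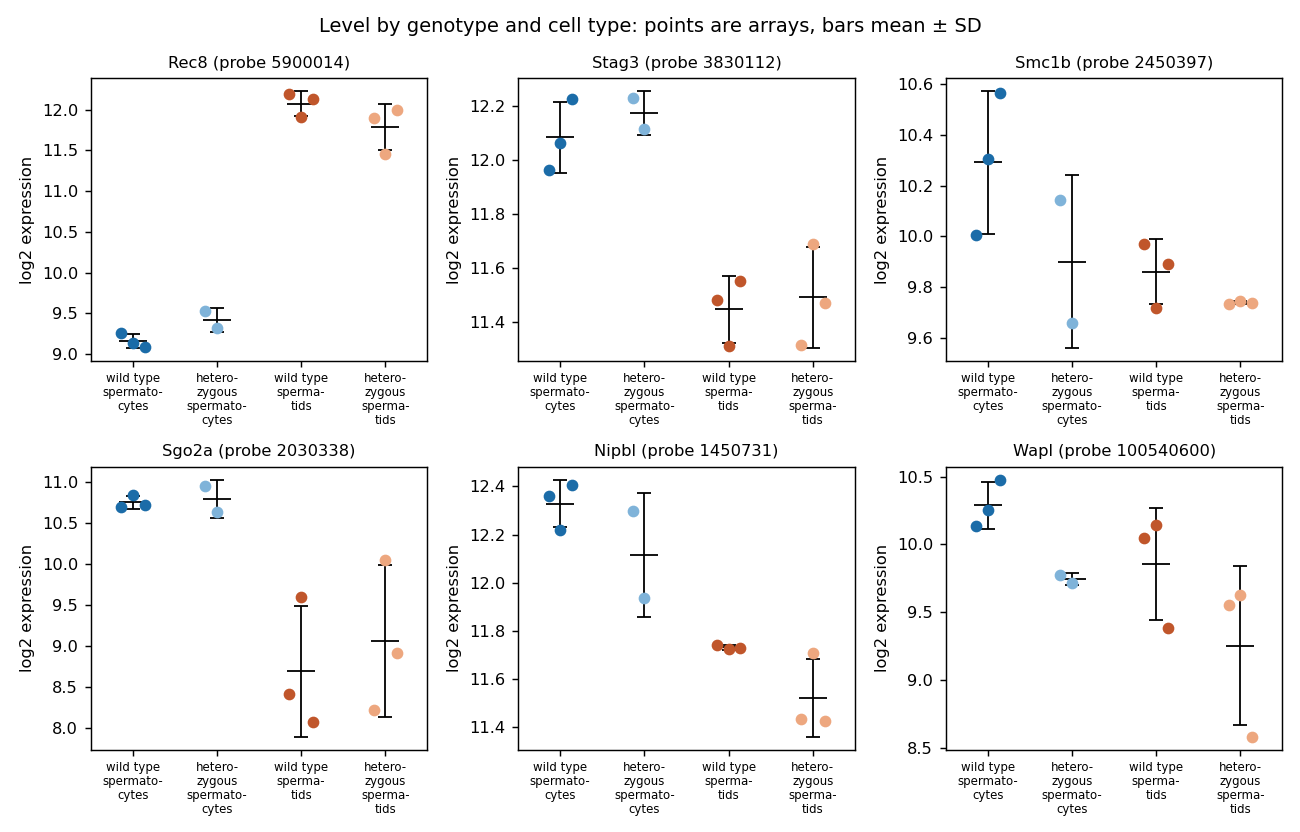
Normalised log2 expression (vertical axis, with a range of its own in each panel) of the brightest probe of 6 members by genotype and cell type. Points are arrays and bars are the mean ± SD of 2 or 3 arrays. *Rec8* lies above 11.4 in all spermatids and below 9.6 in all spermatocytes, and in *Sgo2a* the spermatid arrays spread from 8.07 to 10.05.

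*Nipbl* encodes the loader of the ring and gave the most probes. Of its 6, the same 3 were called lower in spermatids in both genotypes. Probe 7100333 read 12.01, 12.06 and 12.14 in wild type spermatocytes and 11.17, 11.22 and 10.81 in wild type spermatids, so that it fell by 1.00 ± 0.12 (SE, limma adjusted p = 0.00209). In heterozygous cells this probe read 11.88 and 11.82 in spermatocytes and 10.85, 11.20 and 10.90 in spermatids, a difference of -0.87 ± 0.14 (limma adjusted p = 0.00563). No spermatid array reached any spermatocyte array at it. Probe 1450731 differed by -0.60 ± 0.11 in wild type and -0.59 ± 0.12 in heterozygous cells (limma adjusted p = 0.0101 and 0.0161), and probe 5860592 by -0.66 ± 0.15 and -0.68 ± 0.17 (limma adjusted p = 0.0246 and 0.0350).

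The other *Nipbl* probes gave fewer calls. Probe 100460047 differed by -0.85 ± 0.25 in wild type and -0.57 ± 0.28 in heterozygous cells, and probe 107050626 by -0.68 ± 0.30 and -1.07 ± 0.33, none of them called (limma adjusted p between 0.0666 and 0.295). The probe that cites a clone, 100990097, was dim, with differences of -0.08 and 0.00 (SE 0.08 and 0.09). In wild type cells 5 of the 6 probes had spermatid arrays wholly below the spermatocyte arrays, a pattern of the lower kind that 30.9% of all probes showed. The call at 5860592 was lost in 4 of 11 fits without 1 array in wild type cells and in 5 of 11 in heterozygous cells, and that at 1450731 was lost in heterozygous cells without the first heterozygous spermatocyte array (adjusted p = 0.107). The call at 7100333 was kept in all of them. With the probes of a gene averaged and all genes refitted, *Nipbl* was -0.65 ± 0.14 (SE, limma adjusted p = 0.0139) in wild type and -0.63 ± 0.15 (limma adjusted p = 0.0240) in heterozygous cells.

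*Wapl*, the release factor, gave no call between the cell types on any of 4 probes in the fit over all arrays. Its differences in wild type cells ran from -0.18 to -0.56 and in heterozygous cells from -0.06 to -0.49. The largest of the wild type ones, at probe 106770102, was -0.56 ± 0.18 (SE, limma adjusted p = 0.0837). It passed with adjustment within the contrast (0.0370), with array weights (0.00567) and without the third wild type spermatocyte array (0.0326), and the same probe differed by -0.08 ± 0.20 in heterozygous cells. Of all 27986 probes these settings called 10025, 13406 and 4859 in turn, against 7546 in the main fit. Probe 2630452, 1 of the 2 with a curated transcript, read 9.73, 9.96 and 9.81 in wild type spermatocytes and 10.01, 9.71 and 9.23 in wild type spermatids, so that the groups overlapped. The third wild type and the third heterozygous spermatid array carried low values at some of these probes, down to 7.42 at probe 102940731 in a group whose other arrays read 9.05 and 8.91.

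**Figure D3:**
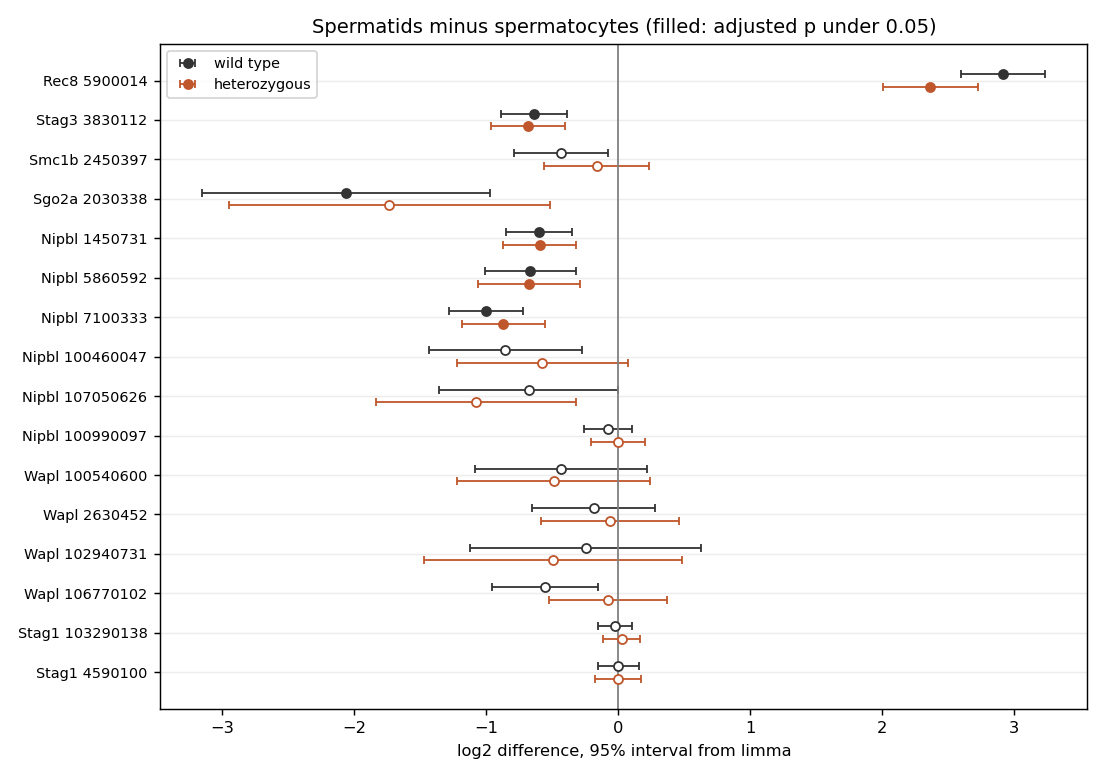
Difference between spermatids and spermatocytes in log2 expression (horizontal axis, negative is lower in spermatids) at the 16 member probes that passed the filter, for wild type (dark) and heterozygous (orange) cells, with 95% intervals from limma. Filled points have an adjusted p under 0.05. *Rec8* is the 1 probe called to the right, at 2.92 and 2.37.

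A second view set each meiotic subunit against its mitotic counterpart within an array, which removes any shift that both probes share. The levels of a pair are not comparable, because the probes differ, but the change of their difference is. The 4 pairs were tested over 6 spermatid and 5 spermatocyte arrays of both genotypes, by a two-sided exact permutation test, and every pair gave p = 0.00216, the smallest that 462 splits allow, also after Benjamini-Hochberg adjustment over the 4. *Rec8* minus *Rad21* was 2.50 ± 0.20 (SD, n = 5) in spermatocytes and 5.15 ± 0.25 (n = 6) in spermatids. *Smc1b* minus *Smc1a* was 3.07 ± 0.41 in spermatocytes and 1.81 ± 0.31 in spermatids, a change of -1.26. At the *Smc1a* probe of this pair (5890113, X chromosome), the brightest of 4, the gene itself rose by 1.10 ± 0.22 (SE) in wild type spermatids (limma adjusted p = 0.0139). It differed by 0.75 ± 0.24 in heterozygous spermatids (limma adjusted p = 0.0893). In spermatocytes this probe lay near the dim end, with means of 7.09 in wild type and 7.03 in heterozygous cells. *Smc1b* itself was called in neither genotype, so the p-value of this pair shows only that the 2 probes changed unequally. The other tested *Smc1a* probes differed by less in wild type spermatids, by 0.29 ± 0.07 (limma adjusted p = 0.0265) and 0.19 ± 0.06 (limma adjusted p = 0.0847), and with the probes of a gene averaged the change of the pair was -0.76. *Stag3* minus *Stag1* changed by -0.65 and *Stag3* minus *Stag2* by -0.75. The *Rad21*, *Stag1* and *Stag2* probes were dim on all arrays, so these 3 differences repeat the values of *Rec8* and *Stag3*, and a dim probe removes little shared shift. Arrays of *Rec8* and *Stag3* were already seen above not to overlap between the cell types. The p-values of these 3 pairs, 2 of which hold *Stag3*, therefore restate that separation and are no further support.

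**Figure D4:**
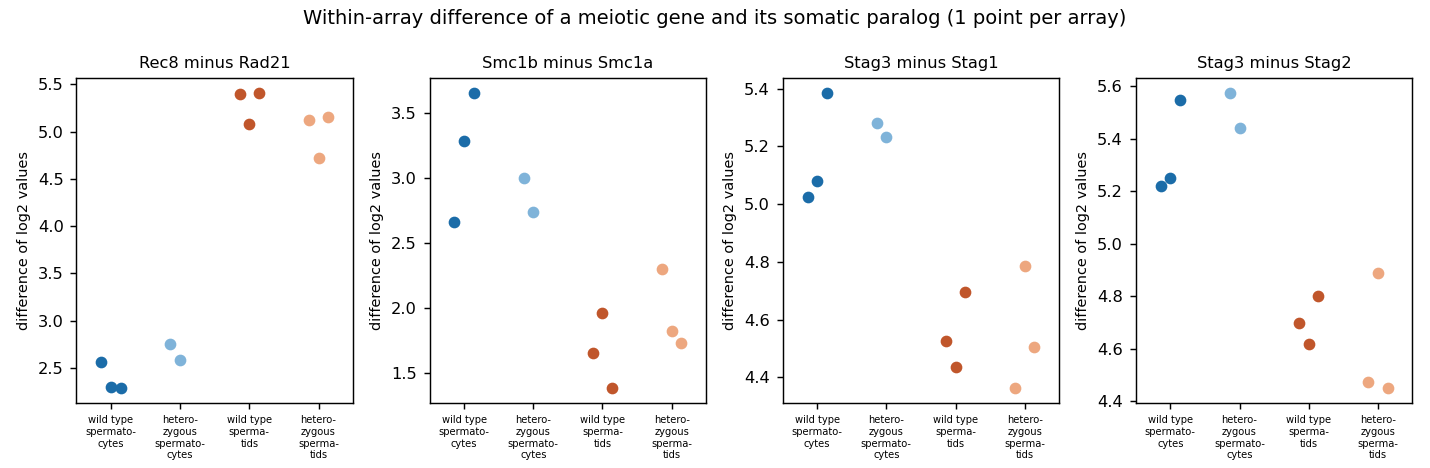
Difference in log2 value between a meiotic subunit and its mitotic counterpart within each array (vertical axis, with a range of its own in each panel), with 1 point per array in the 4 groups. Spermatid and spermatocyte arrays do not overlap in any of the 4 pairs, and *Smc1b* minus *Smc1a* falls from between 2.66 and 3.65 to between 1.39 and 2.30. In the other 3 pairs the mitotic probe is dim on all arrays, so the points follow *Rec8* or *Stag3* alone.

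The second comparison asks whether loss of 1 *Dnmt3L* allele went with other levels of these mRNAs. It called 0 of 16 member probes in spermatocytes and 0 of 16 in spermatids, where 0.186% and 0.44% of all probes were called by limma, and none of the 16 had an unadjusted p under 0.05 in either cell type. The member median was -0.21 in spermatocytes against 0.00 over all probes, with 11 of 16 probes lower, and -0.09 in spermatids against 0.01, with 9 of 16 lower. *Nipbl* gave 6 of these probes and *Wapl* 4, so they do not count genes. With the probes of a gene averaged, *Smc1b*, *Nipbl* and *Wapl* were lower in heterozygous spermatocytes and *Rec8*, *Stag1*, *Stag3* and *Sgo2a* higher. In spermatids *Rec8*, *Smc1b*, *Nipbl* and *Wapl* were lower and the others higher, none of them called.

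*Rec8* had unlike signs in the 2 cell types. In spermatocytes both heterozygous arrays were above all wild type arrays, as at 11.5% of all probes, and the difference was 0.26 ± 0.16 (SE, 95% interval -0.10 to 0.62, limma adjusted p = 0.420). In spermatids the arrays overlapped and the difference was -0.29 ± 0.14 (-0.61 to 0.03, limma adjusted p = 0.284). The interaction of genotype and cell type, tested over all probes by itself, was -0.55 (95% interval -1.03 to -0.07) at *Rec8* with an unadjusted p of 0.0291 in limma and an adjusted p of 1.00, and 0 of the 27986 probes passed it.

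For *Stag3* the heterozygous difference was 0.09 ± 0.12 (SE, 95% interval -0.19 to 0.37) in spermatocytes and 0.04 ± 0.11 (-0.21 to 0.30) in spermatids. *Smc1b* differed by -0.39 ± 0.18 (-0.79 to 0.01) in spermatocytes, the smallest unadjusted p of the members in that cell type (0.0531, limma adjusted p = 0.234), with overlapping arrays, and by -0.12 ± 0.16 in spermatids. *Sgo2a* differed by 0.04 ± 0.54 (-1.18 to 1.26) and by 0.37 ± 0.48 (-0.72 to 1.46), so that a doubling in either direction in spermatocytes, or a doubling upward in spermatids, lies within these intervals.

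The 5 bright *Nipbl* probes were all lower in heterozygous spermatocytes, by 0.15 to 0.27, and 4 of the 5 were lower in heterozygous spermatids, none of them called. At probe 1450731 the 3 heterozygous spermatid arrays (11.43, 11.71 and 11.42) lay just below the 3 wild type ones (11.74, 11.72 and 11.73), as at 3.27% of all probes, with a difference of -0.21 ± 0.11 (SE, limma adjusted p = 0.329). *Wapl* had the most negative differences in both cell types. Its probe 100540600, which cites a clone, read 10.14, 10.26 and 10.48 in wild type and 9.77 and 9.71 in heterozygous spermatocytes, a difference of -0.55 ± 0.32 (limma adjusted p = 0.404). In spermatids the same probe read 10.05, 10.14 and 9.38 in wild type and 9.55, 9.63 and 8.58 in heterozygous cells, a difference of -0.60 ± 0.29 (limma adjusted p = 0.273). It passed the test in spermatocytes when only those 5 arrays were fitted (adjusted p = 0.0389), and in spermatids with array weights (adjusted p = 0.0282). Of all 27986 probes these fits called 117 in spermatocytes and 1281 in spermatids, against 52 and 123 in the main fit. The 2 probes with a curated transcript differed by -0.39 and -0.21 in spermatocytes and -0.64 and -0.09 in spermatids, with SE between 0.21 and 0.43, and were called under none of the alternatives run.

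**Figure D5:**
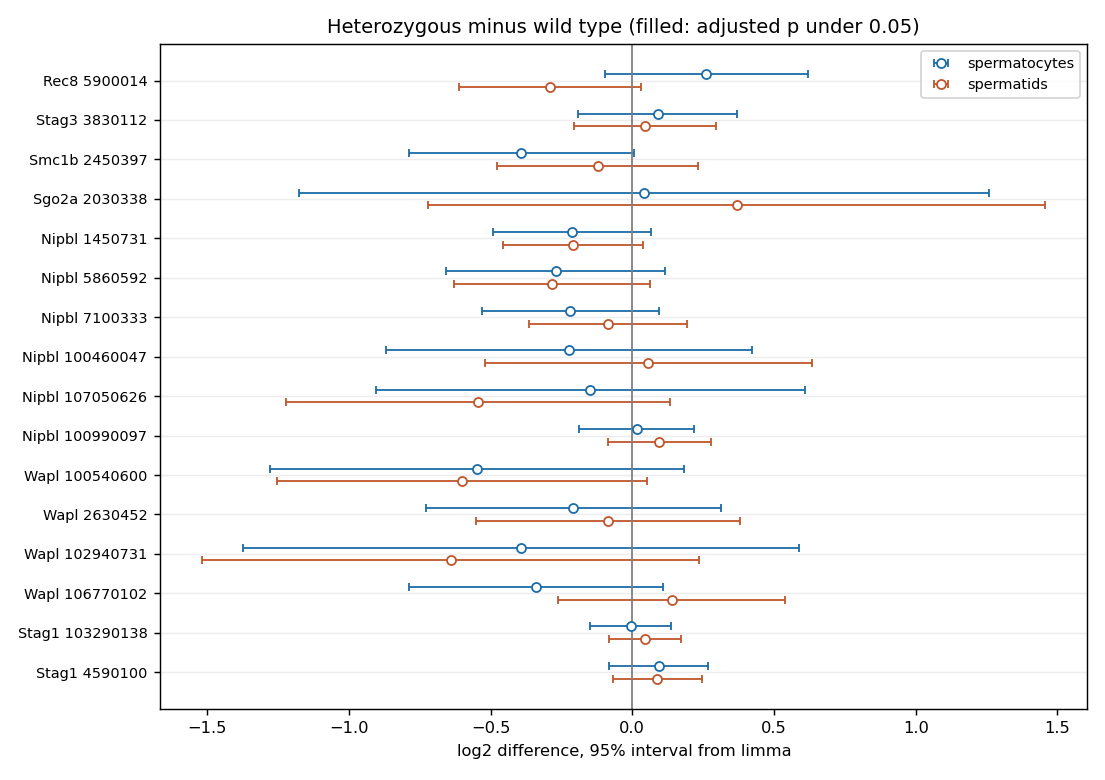
Difference between heterozygous and wild type cells in log2 expression (horizontal axis) at the 16 member probes that passed the filter, in spermatocytes (blue) and spermatids (orange), with 95% intervals from limma. No point is filled, that is, none has an adjusted p under 0.05, and the widest intervals are those of *Sgo2a* and *Wapl*.

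Other genes of the pathway were counted by list. Of 29 other cohesin genes, 24 were tested by 35 probes, of which 4 were called higher and 8 lower in wild type spermatids (median -0.22) and 1 higher and 5 lower in heterozygous spermatids (median -0.13), where 27.0% and 17.8% of all probes were called. The higher genes in wild type cells were *Smc1a*, by 2 of its probes, *Plk1* (0.89 ± 0.18 SE), a kinase that promotes removal of cohesin, and *Atad5* (0.75 ± 0.11), which unloads the sliding clamp PCNA. The lower ones included *Aurkb* (-1.04 ± 0.13) and *Aurkc* (-0.91 ± 0.11), kinases of the chromosomal passenger complex, both also called in heterozygous cells. *Pds5a* and *Pds5b*, whose proteins bind the ring beside WAPL, were called lower in wild type cells (-0.51 ± 0.09 and -0.99 ± 0.23) and not in heterozygous cells (-0.20 ± 0.10 and -0.90 ± 0.26). Tested as an interaction, this difference between the genotypes was called at neither gene. *Sgo1*, the other shugoshin, was dim and differed by at most 0.03 in wild type cells on 3 probes.

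Related SMC complexes were counted in the same way, against 11.5% of all probes called higher and 15.5% lower in wild type spermatids and 8.65% and 9.15% in heterozygous spermatids. Among 14 condensin probes of 7 genes, 1 was called higher and 6 lower in wild type spermatids, and 1 and 3 in heterozygous spermatids. Condensin compacts chromosomes for division, and its *Ncapd3* fell by 1.20 ± 0.25 (SE) and *Smc2* by 0.95 ± 0.14 at the called probes. *Smc4* probes disagreed, with 0.56 ± 0.14 at one and -0.40 ± 0.07 at another, both called. Of 9 probes of the SMC5/6 complex, which acts in DNA repair, 4 were called lower in wild type and 3 in heterozygous spermatids, and 0 higher in either, with *Smc6* at -1.22 ± 0.16 and *Nsmce3* at -1.74 ± 0.31 in wild type cells. Of 5 axis and synaptonemal complex probes, only *Syce3* was called, higher in wild type spermatids (0.84 ± 0.22). Without both spermatid arrays numbered 2 that call was lost and 1 probe, of *Sycp2*, was called lower. In the genotype comparisons 0 probes of these 4 lists were called, with an unadjusted p under 0.05 at 2 of the 35 probes of other cohesin genes in spermatocytes and at 1 in spermatids.

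The probes most like 3 of the members were found by the root mean square of the difference between profiles over the 11 arrays, after each profile was centred on its mean. For *Rec8* they were *4921534H16Rik*, *Mfap3l* and *Cast*, at 0.12 to 0.14, where the median over all probes was 1.36. For *Stag3* they were *Tatdn1*, *Mblac2* and *Scamp3*, at 0.08 to 0.10 against a median of 0.36. For *Smc1b* they were *Ckap5*, *Nxf1* and *Runx1t1*, at 0.10 to 0.11 against a median of 0.32.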

How the data were processed

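RNA of spermatocytes and round spermatids from wild type and *Dnmt3L* heterozygous mice was hybridised to Illumina Mouse WG-6 v1.1 BeadChips, 1 array per preparation. By the methods, the authors read the bead signals out in BeadStudio and used lumi for the rest, with no version of either given in the sources used here. The mean of the negative control beads was subtracted, a variance-stabilising transformation was applied, and the deposited log2 values were quantile normalised. The 22 columns of a deposited bead signal table match no sample by name and were not used. The third heterozygous spermatocyte preparation of the methods is not analysed here. Arrays give no depth, and their number limits the precision.

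Probes were named through the platform annotation, which gives 1 symbol for 32794 probes, more than 1 for 55 and no symbol for 13794. A RefSeq gene table of GRCm38.p6 held 32722 of these single symbols, and the other 72 were kept as they were. A mean for each group was fitted with limma 3.58.1 (R 4.3.3, statmod 1.5.0) on the 27986 probes left after the dimmest 40% by overall mean were dropped, with 7 residual and 1.89 prior degrees of freedom. Adjustment was by Benjamini-Hochberg over all probes and the 4 contrasts together at 0.05, and over all probes alone for the interaction. Fits were tested on simulated data. By the methods the samples of 1 group were separate preparations, each from 10 mice. If they were not, p-values measure technical spread only. All probes of the 10 members are named, and from each list of other genes up to 4 called or 2 uncalled ones, with *Smc1a*, *Stag2*, *Pds5a*, *Pds5b* and *Sgo1* always. The members and lists were chosen with earlier results of these data known. Alternatives were other filters, adjustment within a contrast, fits on the compared arrays, a trended robust prior, array weights, a replicate block, averaged probes and leaving out arrays. Figures used matplotlib 3.10.9.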

Additional observations from a re-analysis of the deposited data

How the results depend on the processing

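The member calls rested on few arrays, and the number of calls over all probes also moved with the settings. The count of member probes called between the wild type cell types (6 of 16) was 4 to 7 when 1 array was left out. Of all 27986 probes, 4241 to 9128 were called in those fits, against 7546 in the main fit. The member count between the heterozygous cell types (5 of 16) was 2 without the first heterozygous spermatocyte array and 8 without the second heterozygous spermatid array. It was 3 when only the groups compared were fitted, and 8 without both spermatid arrays numbered 2, an alternative chosen after the data were seen. Over all probes these settings called 1759, 7507, 2222 and 7870 in turn, against 4983 in the main fit. Between the genotypes 1 probe was called in spermatocytes when only those arrays were fitted (*Wapl* 100540600, -0.55) and 2 in spermatids with array weights (*Wapl* 100540600, -0.83, and *Nipbl* 5860592, -0.50), and 0 under the other alternatives. Over all probes the same fits called 117 in spermatocytes and 1281 in spermatids, against 52 and 123 in the main fit. The change of *Rec8* minus *Rad21* was 2.91 in wild type and 2.33 in heterozygous arrays alone, and that of *Smc1b* minus *Smc1a* -0.92 in heterozygous arrays alone. The cause of these shifts was not tested.

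Labels give the groups shared replicate numbers. Same-numbered heterozygous and wild type spermatid arrays deviated together with r of 0.28, 0.33 and 0.06, and differently numbered ones with r from -0.50 to 0.36. In spermatocytes the same-numbered r were -0.26 and 0.07. The numbers were not taken as pairs in the main fit. With the replicate block 5 member probes were called in wild type and 4 in heterozygous cells between the cell types and 0 between the genotypes, the *Nipbl* probe 5860592 losing its call in both (adjusted p = 0.0522 and 0.0869). Of all 27986 probes the block called 7070 and 4151 between the cell types, against 7546 and 4983 in the main fit. Between the genotypes it called 110 in spermatocytes and 93 in spermatids, against 52 and 123. Under the block 2 uncalled differences changed sign, *Wapl* 106770102 to 0.0071 between the heterozygous cell types and *Sgo2a* to -0.095 between the spermatocytes.

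Single probes were followed through the alternatives for the 13 member probes with a mean above 8. Of 1006 probe results under an alternative, 925 kept direction and side of the threshold, 29 gained a call, 24 lost one and 28 changed sign, all of these uncalled. With array weights the wild type cell type difference was 0.10 at *Wapl* 102940731 and 0.14 at *Wapl* 2630452, and the genotype difference in spermatids -0.036 at *Stag3* and -0.13 at *Nipbl* 100460047. Without both arrays numbered 2 it was -0.12 at *Stag3*, -0.11 at *Nipbl* 100460047 and 0.038 at *Wapl* 2630452, whose heterozygous cell type difference was then 0.030. Leaving out 1 array turned the sign of 13 uncalled differences at these probes in some fits. Between the wild type cell types *Wapl* 2630452 ran from -0.36 to 0.027, and between the heterozygous cell types *Smc1b* from -0.40 to 0.079, *Wapl* 102940731 from -0.79 to 0.026, *Wapl* 106770102 from -0.16 to 0.0014 and *Wapl* 2630452 from -0.31 to 0.18. Between the genotypes in spermatocytes *Nipbl* 107050626 ran from -0.44 to 0.14, *Wapl* 2630452 from -0.45 to 0.039 and *Sgo2a* from -0.12 to 0.20. In spermatids *Stag3* ran from -0.055 to 0.13, *Nipbl* 100460047 from -0.22 to 0.23, *Wapl* 106770102 from -0.0096 to 0.23, *Wapl* 2630452 from -0.30 to 0.094 and *Sgo2a* from -0.13 to 0.82. Background correction and normalisation from the bead signals were not run, because that table could not be matched to the samples.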
